A study of Homo sapiens with 16 samples.

Results

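The Notch genes described here are the receptors NOTCH1, NOTCH2 and NOTCH3, the ligands JAG1, JAG2 and DLL1, the sugar transferase LFNG and the target genes HES1, HEY1 and HEYL. Every probe set of the array whose platform annotation gives 1 gene symbol equal to a listed gene was taken, which gave 20 of 19064 such probe sets and 9 of the 10 listed genes, out of 11963 genes in all. DLL1 was not analysed here, because no probe set had its symbol alone. NOTCH2 and JAG1 had 4 probe sets each, HES1 had 3, NOTCH3, JAG2 and HEY1 had 2, and NOTCH1, LFNG and HEYL had 1. Probe sets of 1 gene read the same RNA and are not replicates, and levels are compared only within a probe set.

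The RNA came from 4 human breast lines, and 16 Affymetrix U133 2.0 arrays were run, 2 for every one of 8 groups. The invasive lines MDAMB231 (MDA-MB-231) and LM24175 carried either an empty vector (EV) or a RECK construct that is expressed constitutively, both by stable infection. The poorly invasive lines Hs343T and Hs606T had received either a scramble siRNA (siSCR) or an siRNA against RECK (siRECK). Each line is thus present with its own control and 1 altered arm, and the labels read here give no dose, time after transfection or passage. The line LM24175 is known to have been derived from MDA-MB-231 lung metastases in mice, so the invasive lines share an origin. The replicates are not said to be separate cultures, so p-values below reflect array-to-array spread that may be technical only.

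Notch receptors are cleaved in steps after a Delta or Jagged ligand on a neighbouring cell binds them. An ADAM protease, ADAM10 above all, cuts outside the membrane, gamma-secretase then releases the intracellular domain, and this domain joins RBPJ and Mastermind proteins on DNA to switch on HES and HEY genes. Fringe enzymes such as LFNG add sugars to the receptor that shift its preference between Delta and Jagged ligands. RECK, a membrane-anchored protease inhibitor, is known to restrain the shedding of Notch ligands by ADAM10, and JAG1 is a ligand often studied in aggressive breast cancers. The arrays measure RNA and not cleavage.

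The promoters of HES1, HEYL and JAG1 are shown because HES1 and JAG1 had the widest ranges between lines among the targets and ligands, and HEYL is a target that carried the same motif count as HES1. Each line holds the 250 bases before the RefSeq gene start in GRCh38.p14, 5′ to 3′ on the strand of the gene, and capitals mark TGGGAA or its reverse complement TTCCCA, the core of the sequence that RBPJ is known to bind. HES1 lies on the plus strand (chr3:194135898-194136147), HEYL on the minus strand (chr1:39639644-39639893) and JAG1 on the minus strand (chr20:10674000-10674249).
HES1: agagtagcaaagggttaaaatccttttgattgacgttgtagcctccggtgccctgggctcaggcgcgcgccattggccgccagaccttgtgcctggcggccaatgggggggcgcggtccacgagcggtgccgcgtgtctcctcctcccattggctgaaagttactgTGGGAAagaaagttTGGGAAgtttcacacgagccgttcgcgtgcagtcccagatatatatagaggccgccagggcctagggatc
HEYL: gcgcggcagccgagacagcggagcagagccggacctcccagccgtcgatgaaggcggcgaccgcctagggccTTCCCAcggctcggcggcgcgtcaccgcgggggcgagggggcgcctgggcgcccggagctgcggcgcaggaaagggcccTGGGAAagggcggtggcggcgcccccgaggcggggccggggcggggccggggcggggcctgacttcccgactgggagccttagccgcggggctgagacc
JAG1: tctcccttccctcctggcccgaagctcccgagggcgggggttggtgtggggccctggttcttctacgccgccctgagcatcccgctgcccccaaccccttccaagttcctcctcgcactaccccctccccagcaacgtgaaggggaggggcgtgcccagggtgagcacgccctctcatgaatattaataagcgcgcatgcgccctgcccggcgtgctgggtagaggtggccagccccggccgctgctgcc
In HES1 the matches start 84 and 70 bases before the gene start, and in HEYL 178 and 99 bases before it. Among 35116 RefSeq windows of this length, 20.8% held at least 1 match and 2.90% held at least 2. NOTCH1, NOTCH2, NOTCH3 and JAG2 had 0 matches in their windows, and LFNG had 0 in 1 window and 1 in another. HEY1 was not analysed here for matches. A match is a string of letters and not a measured site, and no binding was measured in this series.

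RECK itself was read first, as the check of the labels. Its main probe set, 205407_at, stood at 7.74 and 7.78 log2 units in MDAMB231 EV and at 7.78 and 7.80 with the construct. In LM24175 it read 7.96 and 8.04 with EV and 7.39 and 7.76 with the construct. With this probe set neither construct arm rose past the threshold against its control, with differences of 0.03 (adjusted p = 0.961) and -0.42 (adjusted p = 0.179). Hs343T read 6.07 and 5.52 with siSCR against 11.31 and 11.24 in the arrays labelled siRECK, a rise of 5.48 log2 units (SE 0.16, 44.5-fold, adjusted p = 8.85e-11). Hs606T read 8.74 and 8.65 against 11.17 and 11.02, a rise of 2.40 (SE 0.16, 5.29-fold, adjusted p = 8.96e-06). By this probe set RECK went against the labels in both siRNA lines. Of the other RECK probe sets, 216153_x_at gave 0.46 in Hs343T (adjusted p = 0.00152) and 0.17 in Hs606T (adjusted p = 0.514), and 216156_at gave 0.27 and -0.10 without passing. None fell past the threshold, and which transcripts each reads is not known here. The siRNA arms are named below as labelled. An exchange of the labels would turn the sign of each difference within an Hs line and keep its size. In the comparisons between lines it would put other arrays in the place of the controls. Values with the exchange are given there for some probe sets.

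The arrays were alike in range, with medians from 6.42 to 6.57 log2 units and lower quartiles from 4.47 to 4.68, and the arrays of a pair correlated at r = 0.994 to 0.998. MDAMB231 EV replicate 1 and LM24175 RECK replicate 1 deviated together (r = 0.46), and 12 and 16 of the 20 Notch probe sets lay below the second array of the group there. The median difference from the second array was -0.13 and -0.12 log2 units over the Notch probe sets, and 0.02 in either group over all. The summed level of 8 epithelial markers lay between 13.2 and 13.4 on the invasive arrays and between 10.3 and 11.6 on the Hs arrays, while that of 8 fibroblast markers lay between 7.75 and 9.42 and between 15.6 and 16.2. Of the 8 epithelial markers, CDH1 and ESRP1 lay below the lower quartile in all 8 groups, while KRT8, KRT18, KRT19 and KRT7 did in none. Group means of EPCAM, KRT8, KRT18 and KRT7 were higher in every invasive group than in every Hs group. KRT19 was not, with 9.33 in LM24175 EV against 10.68 in Hs606T siSCR, nor was CLDN4, with 5.45 against 5.66. The sum adds unlogged levels, so KRT18, at 12.77 in MDAMB231 EV, weighs most in the invasive groups. CDH5, 1 of 5 endothelial markers, and PTPRC, 1 of 4 leukocyte markers, also lay below it in all 8 groups. LYZ did in all but MDAMB231 EV. Group means of PECAM1 (5.74 to 7.27), VWF (4.76 to 5.63), CD3E (5.87 to 6.46) and CD14 (5.13 to 5.69) lay above it. In bulk RNA, fewer cells of a type and less RNA per cell cannot be told apart.

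NOTCH2, a broadly expressed receptor, varied by line. Its probe set 210756_s_at read 7.94 and 8.13 in MDAMB231 EV, 8.20 and 7.96 with the construct, 8.28 and 8.30 in LM24175 EV and 8.42 and 8.27 with the construct. It read 8.65 and 8.58 in Hs343T siSCR, 9.22 and 9.23 in Hs343T siRECK, 8.01 and 7.55 in Hs606T siSCR and 7.94 and 8.16 in Hs606T siRECK. Hs343T was highest in both arms, with no overlap between its arms or with any other group, and the groups below did not separate cleanly, since 4 pairs of neighbours overlapped. The probe sets 202443_x_at and 212377_s_at ranked the 8 groups in the same order as each other, from Hs343T siRECK down to MDAMB231 EV, over ranges of 11.57 to 12.65 and 10.97 to 12.09.

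NOTCH1, the receptor best known from T-cell leukaemia, read 7.86 and 7.73 in MDAMB231 EV, 7.93 and 7.75 with the construct, 7.91 and 7.98 in LM24175 EV and 8.19 and 8.10 with the construct. It read 7.30 and 7.08 in Hs343T siSCR, 7.94 and 7.92 in Hs343T siRECK, 7.67 and 7.58 in Hs606T siSCR and 7.63 and 7.67 in Hs606T siRECK. Hs343T siSCR was the lowest group and overlapped no other, and the Hs343T siRECK arrays lay among the invasive ones. NOTCH3, a receptor of mural and stromal cells, read 6.09 and 5.97 in Hs343T siSCR, 5.79 and 5.82 in siRECK, 4.65 and 4.77 in Hs606T siSCR and 4.84 and 4.84 in siRECK with 203238_s_at. On the 8 invasive arrays that probe set lay between 4.04 and 4.52, all below the lower quartile of the array. The order from Hs343T through Hs606T to the invasive lines held without overlap, while the 4 invasive groups overlapped each other.

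JAG1 had the widest range of the 20 probe sets. Probe set 216268_s_at read 12.15 and 12.47 in MDAMB231 EV, 12.32 and 12.27 with the construct, 12.04 and 12.04 in LM24175 EV and 12.31 and 12.50 with the construct. It read 5.47 and 5.27 in Hs343T siSCR, 7.93 and 7.80 in Hs343T siRECK, 7.09 and 7.22 in Hs606T siSCR and 7.16 and 6.85 in Hs606T siRECK. All 8 invasive arrays lay above 12, and no Hs array reached 8. Within the Hs lines, Hs343T siRECK lay above both Hs606T arms, which overlapped each other, and Hs343T siSCR lay lowest. Probe set 209099_x_at, of a kind that can cross-hybridise, gave the same order of all 8 groups between 5.96 and 12.42. Probe set 209098_s_at lay between 8.40 and 8.89 on the invasive arrays and below the lower quartile on all 8 Hs arrays. The fourth, 209097_s_at, did not follow them and lay between 4.61 and 5.15 on all 16 arrays, close to the lower quartile.

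JAG2, the other Jagged ligand, spanned less. Its probe set 209784_s_at lay between 5.41 and 6.42, highest in LM24175 EV at 6.25 and 6.42, and 5 pairs of neighbouring groups overlapped. Its probe set 32137_at lay between 5.80 and 6.53, with overlap in 6 pairs of neighbours. LFNG lay between 4.61 and 5.53, from 5.37 and 5.46 in MDAMB231 EV to 4.95 and 4.61 in LM24175 EV, and 6 pairs of neighbours overlapped.

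Among the targets, HES1 divided the lines as JAG1 did. Probe set 203394_s_at read 7.56 and 8.11 in MDAMB231 EV, 7.72 and 7.85 with the construct, 8.93 and 8.92 in LM24175 EV and 8.70 and 8.86 with the construct. It read 4.54 and 4.76 in Hs343T siSCR, 4.35 and 4.42 in siRECK, 4.50 and 4.71 in Hs606T siSCR and 4.36 and 4.33 in siRECK. LM24175 lay above MDAMB231 in both arms, and the Hs arrays lay near the lower quartile, 6 of 8 below it. Probe set 203395_s_at gave between 7.42 and 8.53 on the invasive arrays and between 3.90 and 5.51 on the Hs arrays. Probe set 203393_at lay below the lower quartile on all 16 arrays, between 2.95 and 3.93.

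HEY1, a repressor of the Hairy family with roles in vessels and heart, read 6.34 and 6.82 in MDAMB231 EV, 7.07 and 7.04 with the construct, 7.27 and 7.36 in LM24175 EV and 7.26 and 7.82 with the construct with 44783_s_at. It read 5.36 and 5.46 in Hs343T siSCR, 4.86 and 4.81 in siRECK, 5.51 and 5.51 in Hs606T siSCR and 5.02 and 5.48 in siRECK. Every invasive array lay above every Hs array, and Hs343T siRECK was lowest with no overlap. Probe set 218839_at gave the same order of all 8 groups between 4.97 and 7.16. HEYL, a relative found in smooth muscle and stroma, went the other way within a small range, from 6.24 in LM24175 EV to 7.17 in Hs343T siRECK, and 5 pairs of neighbouring groups overlapped.

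**Figure D1:**
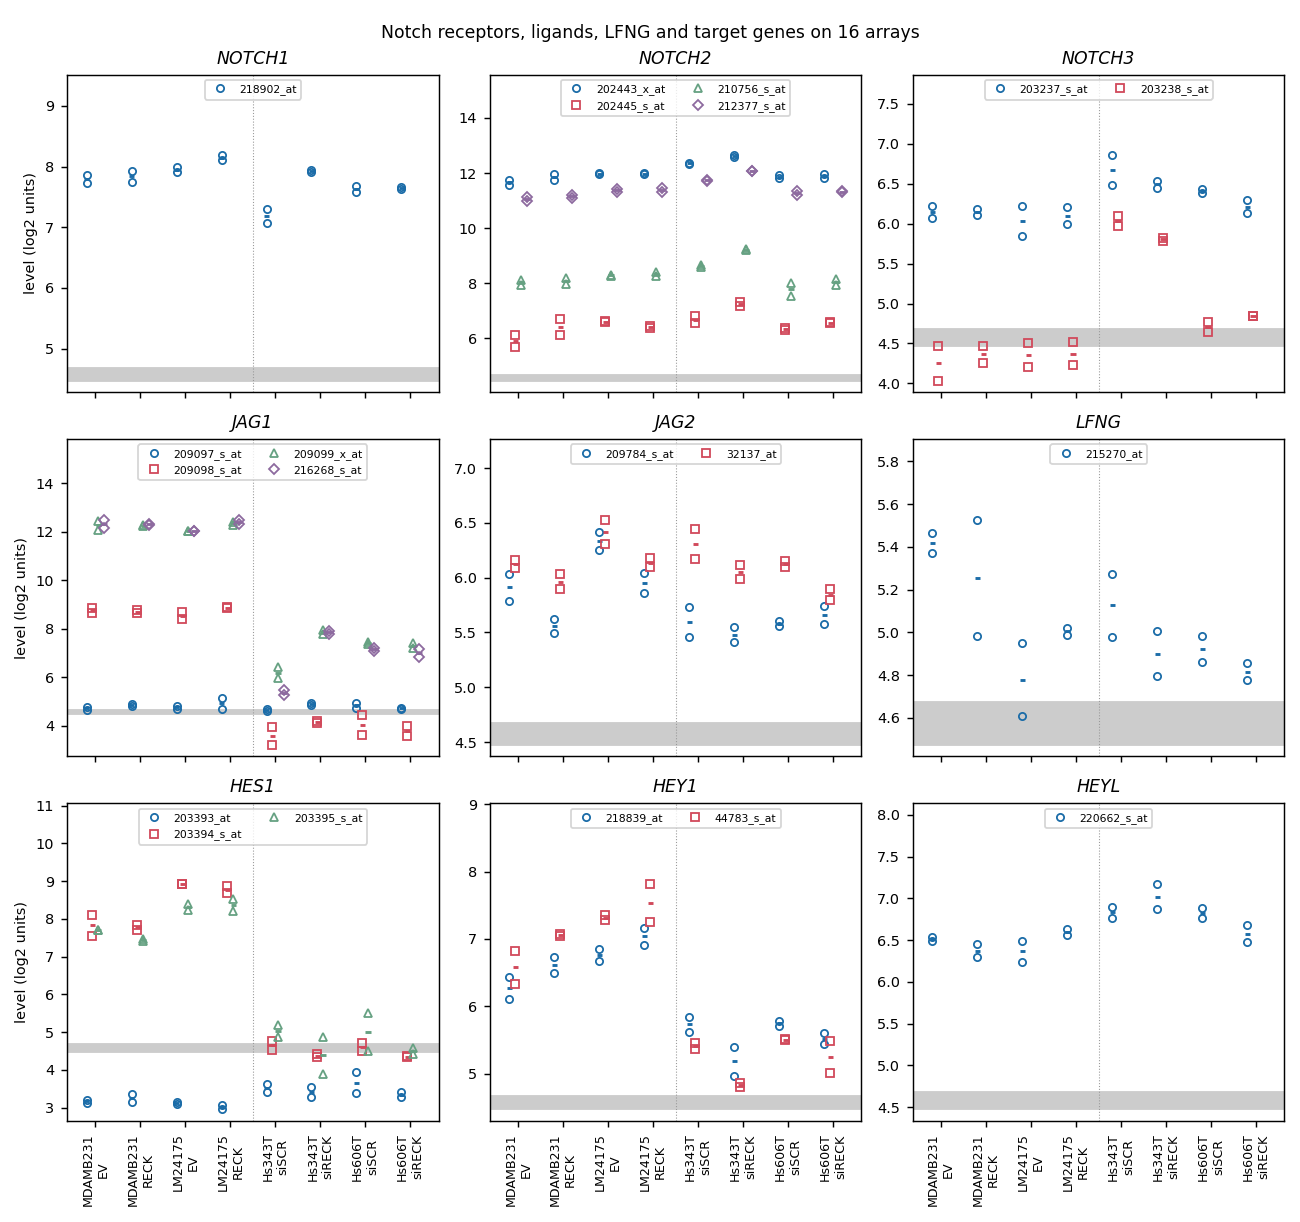
Level in log2 units (vertical axis) of each Notch probe set on each of the 16 arrays, by gene and by group (horizontal axis). Open symbols are single arrays, short bars the means of 2 arrays, the grey band the range of the array lower quartiles from 4.47 to 4.68, and the dotted line parts invasive from poorly invasive lines. JAG1, HES1 and HEY1 lie higher on the 8 invasive arrays, and NOTCH3 is highest in Hs343T.

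The first comparison asks how the lines differed at their controls, both invasive lines with EV against both poorly invasive lines with siSCR. JAG1, HES1 and HEY1 RNA was higher in the invasive lines, and NOTCH3 and HEYL RNA was lower. Of the 20 Notch probe sets, 15 passed (75.0%), 9 higher and 6 lower, in 8 genes. That share is near the background, since 70.0% of all 19064 probe sets passed, 32.6% higher and 37.4% lower. The median difference was 0.06 log2 units over the Notch probe sets and -0.08 over all. JAG1 and HES1 had the largest differences of the 20.

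JAG1 216268_s_at was 5.91 log2 units higher (SE 0.09, 60.1-fold, 95% interval 52.1 to 69.3, adjusted p = 5.33e-14), 209099_x_at 5.33 (SE 0.11, 40.4-fold) and 209098_s_at 4.83 (SE 0.19). The near-floor JAG1 probe set 209097_s_at gave -0.01 (95% interval -0.21 to 0.20). HES1 203394_s_at was 3.75 higher (SE 0.11, adjusted p = 1.02e-11) and 203395_s_at 3.0 higher (SE 0.22), while the low 203393_at was 0.44 lower (difference -0.44, SE 0.11). HEY1 44783_s_at was 1.49 higher (SE 0.14, 2.80-fold, adjusted p = 6.99e-07) and 218839_at 0.78 higher (SE 0.11). NOTCH1 was 0.46 higher (SE 0.07, 1.38-fold, adjusted p = 8.04e-05) and JAG2 209784_s_at 0.53 higher (SE 0.09), while JAG2 32137_at gave 0.05 (95% interval -0.12 to 0.23).

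In the other direction, NOTCH3 203238_s_at differed by -1.07 (SE 0.11, adjusted p = 1.5e-06) and 203237_s_at by -0.45 (SE 0.10). JAG1 209098_s_at, HES1 203394_s_at and 203395_s_at in the Hs lines and NOTCH3 203238_s_at in the invasive lines lay at or near the lower quartile of the arrays, so no fold is given for them, since whether such levels stand above background is not known here. HEYL differed by -0.39 (SE 0.09, adjusted p = 0.00164), with no overlap between the 4 arrays of each side. NOTCH2 202443_x_at and 212377_s_at both differed by -0.29 (SE 0.07), but their arrays overlapped between the sides, where LM24175 EV (11.99 and 11.95, 11.42 and 11.32) met Hs606T siSCR (11.81 and 11.92, 11.34 and 11.20). The other NOTCH2 probe sets gave -0.25 and -0.04, and LFNG gave 0.07 (95% interval -0.19 to 0.34). The comparison sets vector against siRNA controls, so line, class and kind of control cannot be told apart. With the siRNA labels exchanged, JAG1 216268_s_at gave 4.74, HES1 203394_s_at 4.01, HEY1 44783_s_at 1.91 and NOTCH3 203238_s_at -1.02, all passing. NOTCH1 gave 0.08 and HES1 203393_at -0.23, and both lost the call (adjusted p = 0.327 and 0.0886). JAG2 32137_at (0.32), NOTCH2 210756_s_at (-0.48) and NOTCH2 202445_s_at (-0.65) did not pass as labelled and passed with the exchange. The fibroblast marker sum and the 3′ minus 5′ difference of the ACTB control probe sets, 0.83 and 0.91 in the EV groups and 1.52 and 1.25 in the siSCR groups of Hs343T and Hs606T, moved with the line class, and their part in the Notch differences was not tested.

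LM24175 was then set against MDAMB231, both with EV. HES1, HEY1 44783_s_at and the NOTCH2 probe sets 202445_s_at and 212377_s_at were higher in LM24175, with JAG2, and LFNG was lower. Of 20 probe sets, 6 passed (30.0%), 5 higher and 1 lower, where 17.7% of all probe sets passed, 8.13% higher and 9.59% lower. HES1 203394_s_at was 1.09 higher (SE 0.15, 2.13-fold, adjusted p = 0.000389), and 203395_s_at gave 0.62 (95% interval -0.06 to 1.3), which did not pass. HES1 was the gene of this comparison that kept its call in all 25 settings run, between 0.82 and 1.36 log2 units. HEY1 44783_s_at was 0.74 higher (SE 0.19, adjusted p = 0.0193), NOTCH2 202445_s_at 0.71 (SE 0.18), NOTCH2 212377_s_at 0.32 (SE 0.09) and JAG2 209784_s_at 0.42 (SE 0.12), and LFNG differed by -0.64 (SE 0.17, adjusted p = 0.0212). Without MDAMB231 EV replicate 1, one of the arrays that deviate together, HEY1, both NOTCH2 probe sets and LFNG lost the call. Without MDAMB231 EV replicate 2 LFNG and JAG2 lost it (adjusted p of up to 0.200 and 0.230 over all settings). Without either LM24175 EV array fewer of the 20 passed, and the share of all probe sets passing there is not given here. JAG1 did not pass in this comparison, with -0.27 (95% interval -0.56 to 0.02) by 216268_s_at.

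Between the poorly invasive lines, the Hs606T arrays had less NOTCH2 and NOTCH3 RNA than the Hs343T arrays in either arm, while the direction of JAG1 and NOTCH1 turned with the arm. With the arrays labelled siSCR, JAG1 and NOTCH1 were higher in Hs606T. Of 20 probe sets, 7 passed (35.0%), 3 higher and 4 lower, close to the 33.3% of all probe sets, of which 17.3% were higher and 16% lower. JAG1 216268_s_at was 1.78 higher (SE 0.13, 3.43-fold, adjusted p = 9.02e-07), 209099_x_at 1.22 (SE 0.15) and NOTCH1 0.43 (SE 0.10, adjusted p = 0.00512). NOTCH3 203238_s_at differed by -1.33 (SE 0.15, adjusted p = 2.72e-05), and NOTCH2 210756_s_at by -0.84 (SE 0.14), 202443_x_at by -0.49 and 212377_s_at by -0.46. The groups did not overlap for these 7 probe sets. With the arrays labelled siRECK in their place, JAG1 216268_s_at differed by -0.86 (adjusted p = 0.000204), JAG1 209099_x_at by -0.55 (adjusted p = 0.00979) and NOTCH1 by -0.28 (adjusted p = 0.0388). NOTCH2 210756_s_at then gave -1.18 and NOTCH3 203238_s_at -0.96, both passing with the sign unchanged. HEYL passed there at -0.44 (adjusted p = 0.0122), while HES1 203394_s_at (-0.04) and HEY1 218839_at (0.34) did not. In all, 9 of 20 passed, all lower, and the share of all probe sets passing with these arrays is not given here. Between the siSCR arms of Hs343T and Hs606T the interferon sum (10.1 and 10.2 against 11.6 and 11.7), the fibroblast sum (15.6 against 16.1 and 16.2) and the ACTB 3′ minus 5′ difference (1.52 against 1.25) moved too, and their part was not tested. As labelled, the siSCR arms differed by -0.04 for HES1 203394_s_at, 0.02 for HEY1 218839_at and -0.01 for HEYL. The intervals of these probe sets lay within 0.38 log2 units of 0. The other probe sets HES1 203395_s_at and HEY1 44783_s_at gave -0.02 (SE 0.31) and 0.09 (SE 0.19), so their intervals were wider. NOTCH1 lost its call without Hs343T siSCR replicate 2 (0.32, adjusted p = 0.0638).

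**Figure D2:**
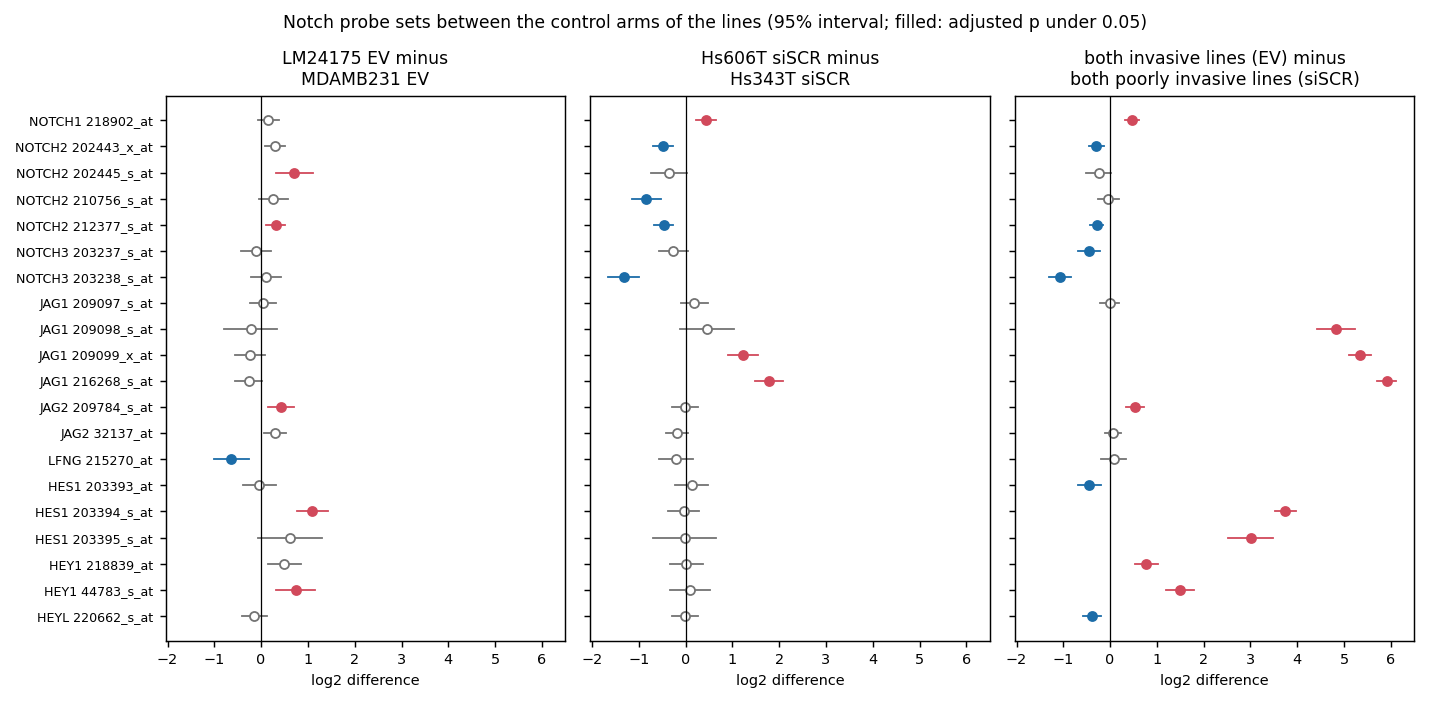
Difference in log2 units (horizontal axis) of each Notch probe set (rows) between the control arms of the lines, with 95% intervals. Filled points passed an adjusted p of 0.05, red where higher and blue where lower. JAG1 and HES1 reach 5.91 and 3.75 between invasive and poorly invasive lines, and NOTCH3 stands at -1.33 between the Hs lines, where JAG1 and NOTCH1 turn sign if the siRNA labels are exchanged.

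The siRNA comparison in Hs343T showed the clearest change within a line. In the arrays labelled siRECK, JAG1, NOTCH1 and NOTCH2 RNA rose and HEY1 RNA fell. Of 20 probe sets, 8 passed (40.0%), 6 higher and 2 lower, in 4 genes, and the background was 25.8% of all probe sets, 11.1% higher and 14.7% lower. The median difference was 0.04 over the Notch probe sets and -0.05 over all.

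By role, the ligand JAG1 rose by 2.49 log2 units with 216268_s_at (SE 0.13, 5.62-fold, 95% interval 4.60 to 6.88, adjusted p = 3.1e-08) and by 1.67 with 209099_x_at (SE 0.15, 3.18-fold, adjusted p = 3.68e-06). Its low probe sets 209098_s_at and 209097_s_at gave 0.58 (adjusted p = 0.134) and 0.25 (adjusted p = 0.191), with the same sign and no overlap between the arms. JAG2 gave -0.11 and -0.26, neither passing. Of the receptors, NOTCH1 rose by 0.74 (SE 0.10, 1.67-fold, adjusted p = 0.000127) and NOTCH2 by 0.61 with 210756_s_at (SE 0.14, 1.52-fold, adjusted p = 0.00665), 0.57 with 202445_s_at (SE 0.18) and 0.34 with 212377_s_at (SE 0.09). NOTCH2 202443_x_at gave 0.26 (adjusted p = 0.0716), so all 4 probe sets had the same sign. NOTCH3 gave -0.18 and -0.23, neither passing.

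Of the 6 target probe sets none rose past the threshold, and both of HEY1 fell. HEY1 fell by 0.55 with 218839_at (difference -0.55, SE 0.16, 1.47-fold, adjusted p = 0.0248) and by 0.58 with 44783_s_at (difference -0.58, SE 0.19, 1.5-fold, adjusted p = 0.0439). HES1 gave -0.27 with 203394_s_at (adjusted p = 0.237), HEYL 0.19 (adjusted p = 0.322) and LFNG -0.23 (adjusted p = 0.390). HES1 203395_s_at gave -0.64, the lowest value of the 20 probe sets, and did not pass. Its arrays read 5.19 and 4.86 with siSCR and 4.87 and 3.90 in siRECK, so the arms overlapped. HEY1 44783_s_at lost the call in 12 of 25 settings, among them each array centred on its median and each Hs343T array left out, with an adjusted p of up to 0.173. HEY1 218839_at lost it in 4 of 24, among them without Hs343T siSCR replicate 2 and without siRECK replicate 1 (adjusted p of up to 0.226), and NOTCH2 202445_s_at and 212377_s_at lost it without any 1 of the 4 Hs343T arrays. JAG1 216268_s_at and 209099_x_at, NOTCH1 (0.63 to 0.85) and NOTCH2 210756_s_at (0.57 to 0.65) passed in every setting run. The summed level of 8 interferon-stimulated genes moved with these results, from 10.1 and 10.2 on the siSCR arrays to 16.4 and 16.5 on the siRECK arrays, and the epithelial sum stood at 11.2 on the siSCR arrays and 10.3 on the siRECK arrays. Their part in the Notch differences was not tested.

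In Hs606T the same siRNA comparison gave no Notch call. With limma 0 of 20 probe sets passed, 1 had an unadjusted p under 0.05, and the smallest adjusted p was 0.365, where 0.986% of all probe sets passed. JAG1 216268_s_at gave -0.15 (95% interval -0.44 to 0.14), NOTCH1 0.02 (-0.20 to 0.24) and NOTCH2 210756_s_at 0.27 (-0.04 to 0.58). HES1 203394_s_at gave -0.26 (95% interval -0.59 to 0.07) and HEY1 44783_s_at -0.26 (-0.68 to 0.16), an interval that includes its Hs343T value of -0.58. HES1 203395_s_at gave -0.50, the lowest of the 20, with arrays at 5.51 and 4.49 with siSCR and 4.58 and 4.42 in siRECK. The interferon sum stood at 11.6 and 11.7 on the siSCR arrays and at 13.6 on the siRECK arrays.

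The difference between the siRNA responses was tested itself. JAG1 and NOTCH1 responded less in Hs606T than in Hs343T. Of 20 probe sets 3 passed, all lower in Hs606T, where 17.4% of all probe sets passed and 7.78% were lower. JAG1 216268_s_at differed by -2.64 (SE 0.19, adjusted p = 1.08e-06), JAG1 209099_x_at by -1.78 (SE 0.21, adjusted p = 8.82e-05) and NOTCH1 by -0.72 (SE 0.14, adjusted p = 0.00364), and these passed in every setting run. For HEY1 the responses were not shown to differ, with 0.32 (95% interval -0.18 to 0.82) by 218839_at and 0.32 (-0.27 to 0.92) by 44783_s_at. NOTCH2 was not shown to differ either, and 210756_s_at gave -0.34 (95% interval -0.78 to 0.10). The Hs343T siSCR arrays, lowest of all for JAG1 and NOTCH1, enter this difference, the Hs343T response and the comparison of the Hs lines, so these results share arrays.

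The RECK construct gave no Notch call in the invasive lines. In MDAMB231, limma passed 0 of 20 probe sets, 3 had an unadjusted p under 0.05, the smallest adjusted p was 0.296, and 0.247% of all probe sets passed. The differences lay between -0.35 for JAG2 209784_s_at and 0.52 for NOTCH2 202445_s_at (95% interval 0.13 to 0.90). The latter passed without MDAMB231 RECK replicate 2, at 0.81 (adjusted p = 0.0276). HEY1 44783_s_at gave 0.48 (95% interval 0.06 to 0.90), with the EV arrays at 6.34 and 6.82 below both construct arrays.

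In LM24175 limma likewise passed 0 of 20, with 3 at an unadjusted p under 0.05 and a smallest adjusted p of 0.114, where 4.97% of all probe sets passed. JAG2 gave -0.38 (95% interval -0.65 to -0.11) and -0.28 (-0.53 to -0.04), JAG1 216268_s_at 0.36 (0.07 to 0.66) and HES1 203394_s_at -0.14 (-0.48 to 0.19). JAG2 209784_s_at had the same sign in both invasive lines, and neither value passed. Between the construct responses of the lines 0 of 20 passed, 1 had an unadjusted p under 0.05 and the smallest adjusted p was 0.161, for NOTCH2 202445_s_at (-0.72, 95% interval -1.27 to -0.16), where 2.87% of all probe sets passed. Since no RECK probe set rose past the threshold in either construct arm, these values compare the labelled arms and not a measured rise of RECK RNA. Whether these probe sets read the RNA of the construct is not known here.

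**Figure D3:**
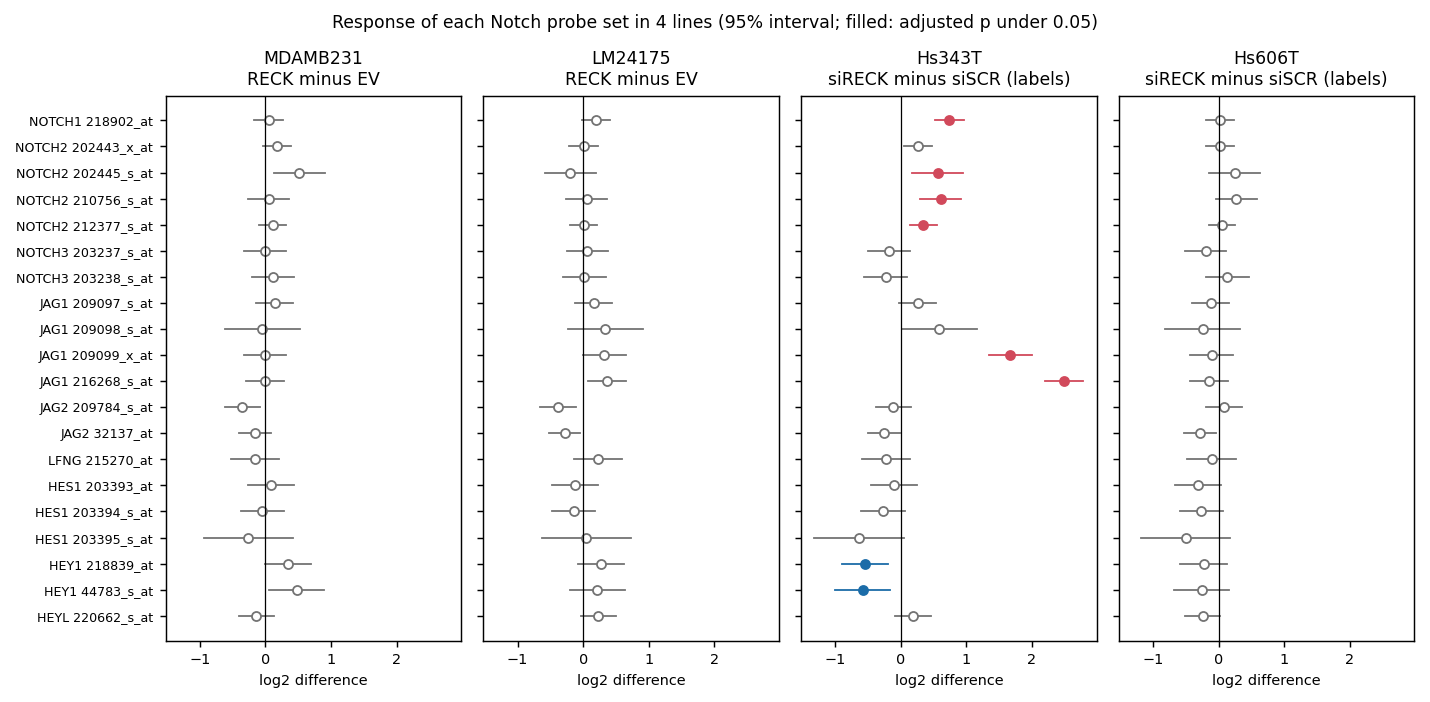
Difference in log2 units (horizontal axis) of each Notch probe set (rows) between the altered and the control arm of each line, as labelled, with 95% intervals. Filled points passed an adjusted p of 0.05, red where higher and blue where lower. The 8 filled points lie in Hs343T, led by JAG1 at 2.49 and 1.67, and the other 3 panels have 0.

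The proteases that cut Notch and its ligands were read with all their probe sets. ADAM10 did not pass in either siRNA line, and 202603_at gave 0.16 in Hs343T and -0.06 in Hs606T around levels from 11.26 to 11.77 on the 16 arrays. In LM24175 with the construct 202604_x_at differed by -0.40 (SE 0.10, adjusted p = 0.0355), a call lost in 12 of 24 settings, among them without any 1 of the 4 LM24175 arrays (adjusted p of up to 0.255), and the other ADAM10 probe sets gave -0.30 and -0.39 without passing. ADAM17, the related sheddase of TNF, read 8.87 and 8.76 in Hs343T siSCR and 9.79 and 9.85 in siRECK with 213532_at. It rose there by 1.0 (SE 0.09, 2.01-fold, adjusted p = 5.87e-06), and its other probe sets rose by 1.02 and 1.20. In Hs606T it gave 0.08, 0.13 and 0.14, and the difference of responses was -0.93 (SE 0.13, adjusted p = 0.000408) with 213532_at. In LM24175 the construct arm differed by -0.41 with 213532_at (SE 0.09, adjusted p = 0.0307), a call lost without any 1 of the 4 LM24175 arrays. The construct responses differed by -0.70 with 213532_at (SE 0.13, adjusted p = 0.0193), lost in 5 of 25 settings. With limma 205745_x_at and 205746_s_at did not pass in LM24175 (-0.32 and -0.33, adjusted p = 0.158 and 0.233). Nor did they pass for the difference of construct responses (-0.44 and -0.61, adjusted p = 0.174 and 0.117).

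Of 50 other listed pathway genes 34 were measured, each read from its highest probe set. In Hs343T 7 rose and 2 fell in the arrays labelled siRECK, and 25 did not pass, with a median difference of 0.02. The share passing, 26.5%, is near the 25.8% of all probe sets. The histone acetyltransferase KAT2B rose by 1.5 (SE 0.09, 2.83-fold, adjusted p = 9.53e-08) and the co-activator MAML1 by 0.59 (SE 0.10), both in every setting. The gamma-secretase subunits moved apart, APH1A with a rise of 0.62 (SE 0.08) and its paralog APH1B with a difference of -0.59 (SE 0.09). SPEN, a co-repressor partner of RBPJ, rose by 0.36, SNW1 by 0.25 and the glucosyltransferase POGLUT1 by 0.45, while the co-repressor CTBP1 differed by -0.57. SPEN lost its call without any 1 of the 4 Hs343T arrays (adjusted p of up to 0.151), SNW1 did in 9 of 25 settings (up to 0.128) and POGLUT1 in 4 of 25 (up to 0.0937). RBPJ, the DNA-binding partner of all receptors, gave 0.13 and 0.12 and did not pass.

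In Hs606T limma passed 0 of the 34, with 3 at an unadjusted p under 0.05, where 0.986% of all probe sets passed. Between the siRNA responses 2 of the 34 were higher in Hs606T and 6 lower (23.5%, against 17.4% of all probe sets), among them KAT2B at -1.21 (SE 0.13), MAML1 at -0.56, APH1A at -0.55 and APH1B at 0.69. MDAMB231 passed 0 of the 34 with the construct, with 5 at an unadjusted p under 0.05, where 0.247% of all probe sets passed. LM24175 had 1 of the 34 higher, PSENEN, and 1 lower, ADAM17, a share of 5.88% near the 4.97% of all probe sets. PSENEN, a gamma-secretase subunit, gave 0.34 (SE 0.09, adjusted p = 0.0456, lost in 17 of 25 settings). Between the lines' controls, 15 of 34 were higher and 10 lower in the invasive lines, a share of 73.5% near the 70.0% of all probe sets. Of the 10 genes of the nuclear complex 9 were higher, where 32.6% of all probe sets were. MAML1 was 1.27 higher there, KAT2B 1.37, SNW1 1.11, CREBBP 1.02 and RBPJ 0.48. Over all settings, the exchanged siRNA labels among them, KAT2B lay between 0.47 and 1.39, MAML1 between 0.96 and 1.30 and CREBBP between 0.87 and 1.06. These 3 genes kept the call. APH1B differed by -1.98, POGLUT1 by -1.02, the ligand DLL3 by -0.87 and the fringe enzyme RFNG by -0.83. Hs606T with siSCR had 10 of the 34 higher and 7 lower than Hs343T (50.0%, against 33.3% of all probe sets), led by SPEN (1.19), ADAM17 (1.12) and PSEN2 (-0.98). With the siRNA labels exchanged ADAM17 213532_at gave 0.19 there and -0.11 between invasive and poorly invasive lines, and neither passed. LM24175 EV had 2 of the 34 higher than MDAMB231 EV, FURIN (0.45) and KAT2B (0.42), and 2 lower, POGLUT1 (-0.49) and RBPJ (-0.41), or 11.8% against 17.7% of all probe sets. Of these, KAT2B, POGLUT1 and RBPJ lost the call without 1 or more of the EV arrays compared (adjusted p of up to 0.0731, 0.136 and 0.0809), and FURIN did not.

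**Figure D4:**
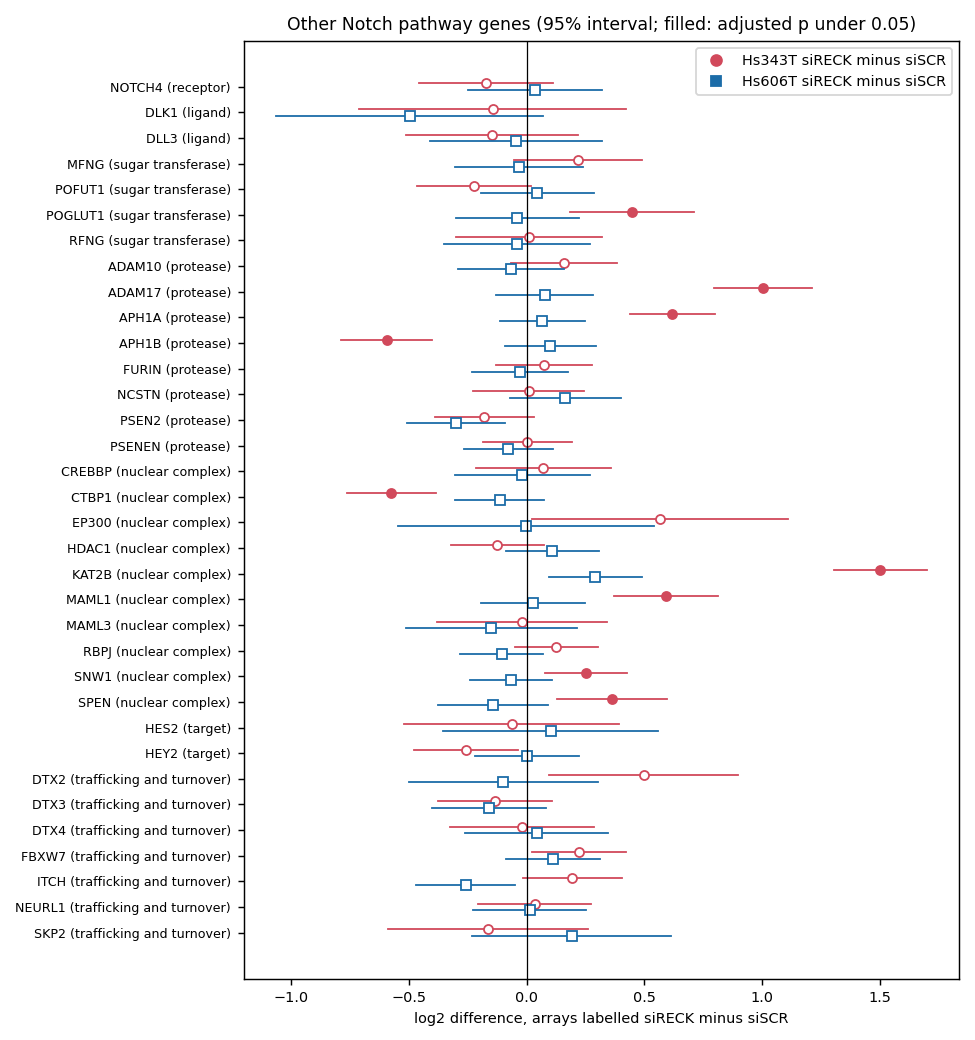
Difference in log2 units (horizontal axis) of 34 other Notch pathway genes (rows, with their role) in Hs343T (red circles) and Hs606T (blue squares), arrays labelled siRECK minus siSCR, with 95% intervals. Filled symbols passed an adjusted p of 0.05: 9 in Hs343T, led by KAT2B at 1.5 and ADAM17 at 1.0, and 0 in Hs606T.

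For each Notch gene whose highest probe set spanned at least 1 log2 unit between group means, the 3 genes with the most similar profile were sought among 8162 probe sets with such a span. The points are the 16 arrays, which share lines and vector or siRNA, so the values describe mostly the contrast between lines. JAG1 209099_x_at, with a span of 6.15, was nearest to NASP (r = 0.995), CDC5L (r = 0.992) and DEK (r = 0.990). HES1 203394_s_at, with a span of 4.58, was nearest to TNFRSF21 (r = 0.992), LAPTM5 (r = 0.991) and NUP107 (r = 0.991). HEY1 44783_s_at, with a span of 2.70, was nearest to SHMT2 (r = 0.980), MZF1 (r = 0.979) and ZZZ3 (r = 0.977).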

How the data were processed

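The authors deposited 1 table with log2 values, 1 for each array and probe set, and the submitters' processing notes name Partek. How probes were summarised and scaled is not given here, and base 2 was inferred from the range of the values. No detection calls were used. Of 22277 probe sets, 19064 had exactly 1 symbol after 62 controls were left out, giving 11963 genes, while 1043 had several symbols and 2164 were not listed.

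One limma model (version 3.58.1, R 4.3.3) with a mean for each of 8 groups was fitted to all 16 arrays (lmFit, contrasts, eBayes; 8 residual and 4.04 prior degrees of freedom, median residual SD 0.134). Tests were 2-sided, with Benjamini-Hochberg adjustment over 19064 probe sets and an adjusted p under 0.05 as a pass. The number of arrays limits the precision. On simulated data for the 19064 probe sets with known changes, over the comparisons, 41.8% to 59.7% of 1.5-fold, 82.1% to 92.5% of 2-fold and 98.5% to 100% of 4-fold changes were recovered, with 9 to 16 false calls. Groups came from the titles. Alternatives were quantile normalization, median centring, 1 probe set per gene, the mean per gene, trended and robust eBayes, only those arrays compared, a replicate block, a 1.5-fold minimum, arrays left out and, added after seeing the data, the siRNA labels exchanged. The Notch genes and all lists were chosen with earlier results of these data known. Named genes are all members, RECK, ADAM10, ADAM17, RBPJ, up to 4 passing pathway genes per role and comparison, and the 3 most similar genes. Same-numbered arrays were not paired, since 1 of 28 pairs of groups had a correlation of deviations over 0.1. Python 3.11.15 with numpy 2.4.6, pandas 2.3.3 and matplotlib 3.10.9 made tables and figures.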

Additional observations from a re-analysis of the deposited data

Results flagged for a closer look

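The responses of 2 lines to the same label differed, by the test of the difference itself with limma, for the following probe sets. Between the siRNA responses, Hs606T minus Hs343T, JAG1 differed by -2.64 with 216268_s_at and by -1.78 with 209099_x_at, NOTCH1 by -0.72 and RECK by -3.07 log2 units. ADAM17 differed by -0.93, -0.88 and -1.07 with its 3 probe sets. Among the other pathway genes, KAT2B differed by -1.21, MAML1 by -0.56, APH1A by -0.55, SPEN by -0.51 and ITCH by -0.45, and APH1B and CTBP1 differed in the other direction by 0.69 and 0.46. Between the construct responses, LM24175 minus MDAMB231, ADAM17 213532_at differed by -0.70. Of these, MAML1, SPEN, ITCH, CTBP1 and the ADAM17 construct difference lost the call in 5, 11, 9, 9 and 5 of 25 settings. APH1A lost it in 1 of 25, the 1.5-fold minimum.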

How the results depend on the processing

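No passing difference of a Notch or listed pathway probe set changed sign in the settings planned, while differences near 0 that did not pass could. Of 20 probe sets, 8 passed in Hs343T (siRECK minus siSCR), 7 between the Hs lines and 15 between invasive and poorly invasive controls. With the highest probe set per gene these became 3, 3 and 7 of 9 genes, with the mean per gene 5, 4 and 8 of 9, and with a 1.5-fold minimum 4, 4 and 8 of 20. Between LM24175 and MDAMB231 with EV, 6 passed, but 2 with only the arrays compared and 2 without both deviating arrays. With an array left out, the counts moved in Hs343T and between LM24175 and MDAMB231. They also moved for the construct in MDAMB231 and for the difference of construct responses. The counts over all probe sets moved in these comparisons too. The causes were not tested, except that fewer genes than probe sets enter the per-gene settings. The share of all probe sets passing in each alternative setting is not given here, so these counts are not set against a background. The replicate block left 8 passing in Hs343T, 3 for the difference of siRNA responses, 0 for each construct and Hs606T comparison, 15 and 7 between lines, and 7 in place of 6 for LM24175 against MDAMB231. With the siRNA labels exchanged, a setting chosen after seeing the data and run for the comparisons between lines, 9 probe sets passed between the Hs lines and 16 between invasive and poorly invasive lines. Between the Hs lines the sign then turned for JAG1 (-0.86 and -0.55), NOTCH1 (-0.28), KAT2B (-0.70), ADAM17 205746_s_at (-0.13) and 205745_x_at (-0.0069), ITCH (-0.14), SNW1 (-0.01) and APH1B (0.053), and for ADAM17 213532_at (-0.11) between invasive and poorly invasive lines.

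Each group has 2 arrays, and leaving out 1 array moved the count over all probe sets in MDAMB231 from 47 to between 2 and 755. Changes of 1.5-fold were often missed in the simulation. Levels near the lower quartile, as of HES1 in the Hs lines, have no order.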
